A study of Mus musculus with 6 samples.

Results

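The phagocyte NADPH oxidase, an enzyme that macrophages and neutrophils use to make superoxide, was examined through 4 of its subunit genes, *Cybb*, *Cyba*, *Ncf1* and *Ncf4*. They were chosen by gene symbol, and all 4 were among the 15903 genes tested, each identified in the deposited tables by its Ensembl identifier. Transcripts were measured in bone-marrow-derived macrophages (BMDMs), which are macrophages grown from bone marrow with the growth factor M-CSF at 10 ng/ml. The marrow came from 3 Cx3cr1GFP mice on the C57BL/6J background, which carry GFP in the *Cx3cr1* locus, so controls and treated cells share this allele. Cells of each mouse were left unstimulated (control, n = 3) or received 62 mM of NaCl on top of the medium's own salt over 24 h (NaCl, n = 3), and only adherent cells were used for RNA-sequencing. The question was whether 24 h of excess salt changes the expression of the subunits, singly or in proportion to each other.

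The oxidase is inactive until it is assembled. Its membrane part is a flavocytochrome of gp91phox, the catalytic subunit encoded by *Cybb*, and p22phox, the stabilising partner encoded by *Cyba*, and each of these proteins depends on the other for stability. On activation cytosolic subunits, among them p47phox (*Ncf1*, the organiser) and p40phox (*Ncf4*, which binds a phosphoinositide on phagosomes), move to the membrane together with the small GTPase Rac. The enzyme then passes electrons from NADPH to oxygen inside the phagosome. Loss of a subunit causes chronic granulomatous disease, in which phagocytes fail to kill certain microbes. RNA reports none of this activity, since assembly and phosphorylation act on the proteins.

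Promoter windows of *Cybb*, *Cyba* and *Ncf1* are shown as a description of their sequence. No window of *Ncf4* is shown. RefSeq (GRCm38.p6) gave a window from 250 bases before to 50 bases after the start for *Cybb* (chrX:9469275-9469574, minus strand), *Cyba* (chr8:122432891-122433190, minus strand) and *Ncf1* (chr5:134229576-134229875, minus strand). Each is printed along the strand of the gene, and capitals mark every match, on either strand, to 1 of 6 short motifs.
Cybb: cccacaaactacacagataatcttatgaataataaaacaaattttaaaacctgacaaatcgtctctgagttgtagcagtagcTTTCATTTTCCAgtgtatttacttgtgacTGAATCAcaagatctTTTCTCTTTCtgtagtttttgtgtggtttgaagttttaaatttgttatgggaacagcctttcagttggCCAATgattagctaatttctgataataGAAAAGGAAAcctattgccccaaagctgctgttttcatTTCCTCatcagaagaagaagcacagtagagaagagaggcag
Cyba: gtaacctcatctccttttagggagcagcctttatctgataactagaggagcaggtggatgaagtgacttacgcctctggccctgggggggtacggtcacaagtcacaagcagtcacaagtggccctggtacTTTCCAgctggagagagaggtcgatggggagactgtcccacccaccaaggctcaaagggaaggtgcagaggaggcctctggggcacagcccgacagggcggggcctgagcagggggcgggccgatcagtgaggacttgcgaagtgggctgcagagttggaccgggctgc
Ncf1: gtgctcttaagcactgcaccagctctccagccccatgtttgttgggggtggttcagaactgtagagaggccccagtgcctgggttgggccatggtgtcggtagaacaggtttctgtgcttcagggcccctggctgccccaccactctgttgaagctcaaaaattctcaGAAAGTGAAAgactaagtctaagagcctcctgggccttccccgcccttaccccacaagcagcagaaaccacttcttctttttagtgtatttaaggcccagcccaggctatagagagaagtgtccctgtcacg
The motifs were GAGGAA (the core of sites for the myeloid factor PU.1), CCAAT (the box bound by factors such as NF-Y), TGGAAA (a core of NFAT and NFAT5 sites), TGANTCA (AP-1), the core of interferon response elements (the letters GAAA present at both ends of a gap of any 2 bases) and TATAAA (the TATA box). The *Cybb* window held 3 matches to the interferon response core, and the *Ncf1* window held 1, at -82 to -73 from the start. Of the 32851 promoter windows of this length, 3.44% hold this core. One of the 3 matches in *Cybb*, at -168 to -159, overlaps its match to TGGAAA at -162 to -157. The *Cyba* window had a single match to the 6 motifs, TGGAAA at -119 to -114, and 21.4% of all windows hold TGGAAA. *Cybb* also had GAGGAA at 10 to 15 (in 28.3% of all windows), CCAAT at -56 to -52 (37.4%) and TGANTCA at -139 to -133 (7.81%), and TATAAA (13.6%) was in none of the 3 windows. The GC content was 35.3% for *Cybb*, 60.7% for *Cyba* and 54.0% for *Ncf1*, against a median of 52.7% over all windows. These matches describe the sequence only. Whether any of them is bound, or bears on the expression of these genes with salt, was not tested.

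Reads assigned to genes ranged from 8520433 to 20123570 in control and from 4088065 to 11610020 in NaCl, and the shallowest library was NaCl replicate 3. The most weakly counted member, *Ncf4*, had 737 reads in that library, and all other counts of the members were higher. Values are given as CPM (reads of a gene scaled to a common library size, with library sizes scaled by TMM). Of the 8 macrophage markers listed, 8 were tested, and the defining *Csf1r*, *Adgre1*, *Itgam* and *Cd68* were present in both groups, the lowest of them being *Itgam* with means of 430.0 CPM in control and 453 CPM in NaCl. *Lyz2*, which encodes lysozyme, was the only one of the 8 past the threshold in edgeR's test, with a log2 fold change of 0.96 (adjusted p = 0.0424), and *Csf1r*, the M-CSF receptor, had a log2 fold change of 0.72 (adjusted p = 0.0523). *Mertk*, a receptor for the uptake of dead cells, had a log2 fold change of -0.97, with all NaCl libraries below all controls (adjusted p = 0.12 in edgeR, 4.28e-06 with the block and 0.00903 in DESeq2). With the mouse as a block 2 of the 8 were higher (*Lyz2* and *Csf1r*) and 1 lower (*Mertk*), against 4.6% of all genes higher and 4.3% lower. DESeq2 without the block also called 2 higher and 1 lower, where it called 2.52% of all genes in either direction. The median log2 fold change of the 8 was -0.06. *Adgre1* was lower in 3 of 3 mice, at -0.20 (adjusted p = 0.657). The summed level of the 8, most of it *Lyz2*, was 15012 to 16353 CPM in control and 23394 to 30923 CPM in NaCl. Of 13 neutrophil markers, 13 were tested, and 0 were past the threshold in edgeR and 0 in DESeq2. At an unadjusted p under 0.05 in edgeR 2 were lower. With the mouse as a block 3 were lower, *Csf3r*, *Ngp* and *Mpo*, against 4.3% of all genes lower in that fit. The summed level of the 13 was 337 to 617 CPM in control and 335 to 431 CPM in NaCl. Single markers differed widely in level. The defining marker *Ly6g*, the lowest of the 13, stayed under 0.7 CPM in each library. *S100a9*, the highest, had means of 117 CPM in control and 104 CPM in NaCl. Summed monocyte markers (7 of 7 tested) were at 165 to 266 CPM in control and 147 to 336 CPM in NaCl. Only *Ifitm6* was past the threshold in edgeR's test, with means of 2.61 CPM in control and 28.3 CPM in NaCl (log2 fold change 3.45, adjusted p = 0.00997). The median log2 fold change of the 7 was -0.26. Dendritic cell markers summed to at most 4.80 CPM and B cell markers to at most 10.4 CPM, with *Ms4a1* at a total of 3 reads, and eosinophil and mast cell markers were at 48.2 to 84.3 CPM in control and 55.0 to 94.4 CPM in NaCl, with *Siglecf* higher and *Prg2* lower in the fit with the block. The part of these markers in the results that follow was not tested. In bulk RNA, fewer cells of a type and less RNA per cell cannot be told apart.

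The catalytic subunit was the most abundant member by counts. *Cybb* (ENSMUSG00000015340.11, chromosome X) was at 1116, 959 and 877 CPM in the control libraries of mice 1, 2 and 3, and their NaCl libraries were at 1456, 1100.0 and 1265 CPM. It was higher with salt in each of the 3 mice, but the groups overlapped, because control replicate 1 exceeded NaCl replicate 2. Its mean was 984 ± 122 CPM without and 1274 ± 178 CPM with NaCl (SD, n = 3 each), a ratio of 1.29. In edgeR's quasi-likelihood test across all genes *Cybb* had a log2 fold change of 0.37 (SE, the standard error, 0.15, 95% interval 0.03 to 0.71), with an unadjusted p of 0.0352 and an adjusted p of 0.355, which does not pass the threshold of 0.05. With the mouse as a block the adjusted p of *Cybb* was 0.0514 in edgeR and 0.0336 in DESeq2, so the call depended on the tool. Its log2 ratios within mice 1, 2 and 3 were 0.38, 0.20 and 0.53.

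The membrane partner of gp91phox did not share this direction. *Cyba* (ENSMUSG00000006519.12, chromosome 8) was at 483, 500.3 and 479 CPM in control and at 498, 460.0 and 373 CPM in NaCl replicates 1, 2 and 3. The 3 control libraries lay close together, whereas NaCl replicate 1 lay within their range and NaCl replicates 2 and 3 below it. Mean levels of *Cyba* were 488 ± 11.2 CPM without and 444 ± 64.3 CPM with NaCl (n = 3 each), which gave a log2 fold change of -0.14 (SE 0.14, 95% interval -0.44 to 0.17, adjusted p = 0.735 in edgeR). Within mice it was 0.04, -0.12 and -0.36, and with the mouse as a block the adjusted p was 0.533. Without NaCl replicate 3, the shallowest library, the log2 fold change of *Cyba* in edgeR was -0.02. 
The organiser subunit gave the clearest separation among the members. *Ncf1* (ENSMUSG00000015950.14, chromosome 5) was at 315, 336 and 355 CPM in control and at 443, 440.3 and 402 CPM in NaCl replicates 1, 2 and 3. All NaCl libraries lay above all control libraries. The means were 335 ± 20.2 and 428 ± 22.9 CPM (n = 3 each), a ratio of 1.28, with a log2 fold change of 0.35 (SE 0.12, 95% interval 0.08 to 0.62). The unadjusted p was 0.0155 and the adjusted p 0.269 in edgeR without the block, 0.0586 with it, and 0.0535 in DESeq2 with the block. Of its exonic bases, 11.1% overlap *Gtf2ird2* on the opposite strand in GENCODE M21, and reads there cannot be assigned by strand in these libraries.

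The phosphoinositide-binding subunit lay above its controls as well, by less and with more spread. *Ncf4* (ENSMUSG00000071715.13, chromosome 15) was at 137, 142 and 159 CPM in control and at 162, 213 and 177 CPM in NaCl replicates 1, 2 and 3. The groups did not overlap, although NaCl replicate 1 was only just above control replicate 3. The means were 146 ± 11.8 and 184 ± 26.4 CPM (n = 3 each), a ratio of 1.26, and the log2 fold change was 0.33 (SE 0.14, 95% interval 0.02 to 0.65). The adjusted p was 0.373 in edgeR, 0.0902 with the block and 0.144 in DESeq2 with the block.

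**Figure D1:**
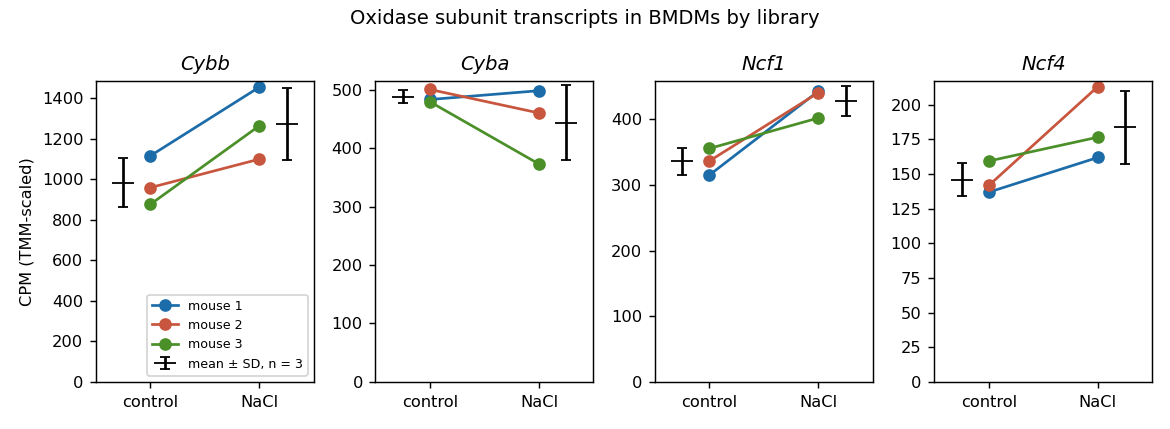
CPM (vertical axis, from 0, TMM-scaled) of each subunit gene in the control and NaCl libraries, with 1 line per mouse and the mean ± SD of 3 libraries in black. *Cybb*, *Ncf1* and *Ncf4* were higher in NaCl in 3 of 3 mice, and *Cyba* in 1 of 3.

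Across the members, edgeR's test without the block called 0 of 4, where it called 0.654% of all genes tested. At an unadjusted p under 0.05 there were 3 of 4, all higher in NaCl, against 6.63% of all genes that were higher at that level. DESeq2 without the block also called 0 of 4, where it called 2.52% of all genes. With the mouse as a block edgeR called 0 of 4, against 8.9% of all genes, and DESeq2 called 1, *Cybb*, against 5.07%. The groups did not overlap, with NaCl higher, for 2 of the 4 (*Ncf1* and *Ncf4*), as for 8.92% of all genes, and 3 of the 4 were higher in NaCl in 3 of 3 mice, as were 20.1% of all genes. The median log2 fold change of the 4 was 0.34, and that of all genes tested was -0.01. Summed over the 4 genes, the level was 1871 to 2051 CPM in control and 2213 to 2558 CPM in NaCl.

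The genes were compared with each other per kilobase of exon, since a long transcript gives more reads than a short one at an equal number of molecules. On this scale *Cyba*, whose exons span 1039 bases, stood first and *Cybb*, with 5808 bases, second. In control, *Cyba* was at 469 ± 10.8, *Cybb* at 169 ± 21.0, *Ncf1* at 91.6 ± 5.52 and *Ncf4* at 72.3 ± 5.85 CPM per kilobase (n = 3 each). In NaCl the order was unchanged, at 427 ± 61.9, 219 ± 30.6, 117 ± 6.26 and 91.0 ± 13.1. The libraries of neighbouring members did not overlap in either group. Between *Ncf1* and *Ncf4*, the closest neighbours, the gap in NaCl was from 110 for the lowest *Ncf1* library to 106 for the highest *Ncf4* library. The partner *Rac2* overlapped *Ncf1* in both groups, at 91.7 ± 6.03 and 126 ± 29.1. All 4 members were among the abundant transcripts in control BMDMs, with from 95.5% (*Ncf4*) to 99.5% (*Cyba*) of 12647 protein-coding genes below them per kilobase. With the length of the longest transcript in place of all exons the 4 members kept their order, but the control libraries of *Ncf4* and *Ncf1* then met at 109 and their NaCl libraries overlapped, with the highest *Ncf4* library at 146 and the lowest *Ncf1* library at 139.

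**Figure D2:**
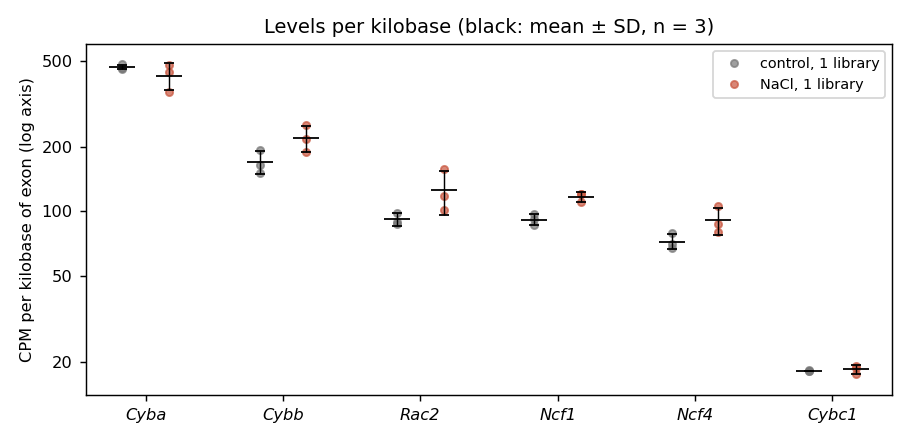
CPM per kilobase of exon (log axis) of the 4 subunit genes and of *Rac2* and *Cybc1*, with 1 point per library and the mean ± SD (n = 3) in black. *Cyba* is highest in both groups and the members keep the order *Cyba*, *Cybb*, *Ncf1*, *Ncf4*.

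Because the proteins act as a complex, the ratio between subunits was compared within each library, which removes library size. The log2 ratio of *Cybb* to *Cyba*, the pair that forms the flavocytochrome, was 1.21, 0.94 and 0.87 in the control libraries of mice 1, 2 and 3, and with NaCl it was 1.55, 1.26 and 1.76. All NaCl libraries were above all control libraries, and the mean difference was 0.52 on the log2 scale. The changes within mice 1, 2 and 3 were 0.34, 0.32 and 0.89 (SD 0.325). The largest was in mouse 3, whose NaCl library was the shallowest. The log2 ratio of *Cyba* to *Ncf1* has *Cyba* on top rather than below. It went from 0.62, 0.57 and 0.43 in control to 0.17, 0.06 and -0.11 in NaCl, with a mean difference of -0.50. The within-mouse changes of this ratio were -0.45, -0.51 and -0.54, with an SD of 0.05, which made it the most even of the 6 ratios. In a two-sided exact permutation test both pairs had p = 0.1, the smallest that 3 against 3 allow, and 0.3 after adjustment over the 6 pairs, so this test, which does not use the pairing by mouse, could not pass the threshold. An exact test on the signs of the changes within 3 mice has a larger smallest p.

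The other pairs showed how far the members moved together. The ratio of *Cyba* to *Ncf4* differed by -0.47 (exact permutation p = 0.2, adjusted 0.4), and its groups overlapped. Between the 3 genes with higher means in NaCl the differences were small, at 0.02 for *Cybb* over *Ncf1*, 0.04 for *Cybb* over *Ncf4* and 0.03 for *Ncf1* over *Ncf4*, each with an exact permutation p of 0.9. These small means hid opposite changes in single mice, since *Cybb* over *Ncf4* changed by 0.14, -0.39 and 0.38 in mice 1, 2 and 3. In mouse 2 *Ncf4* had the largest log2 ratio of the 4 genes, and in mouse 3 *Cybb* had.

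**Figure D3:**
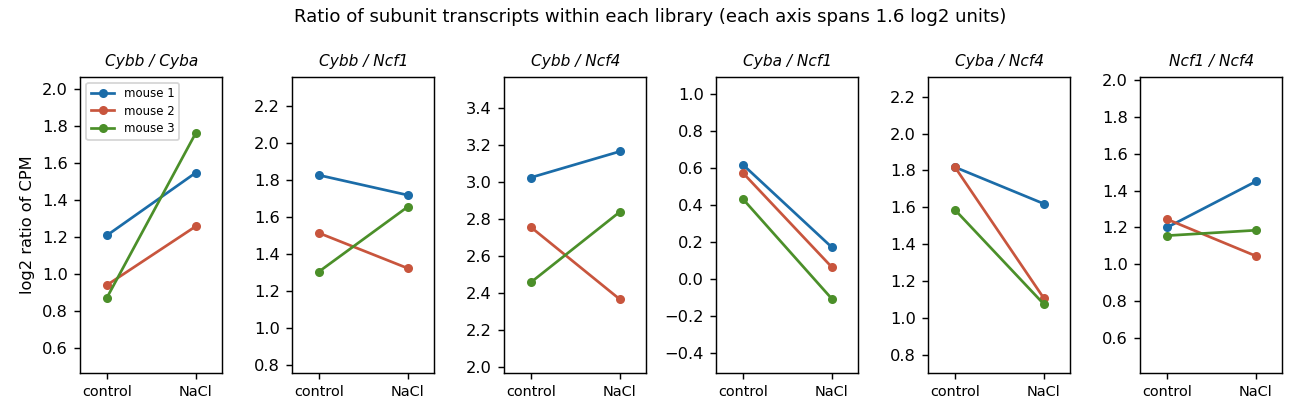
Log2 ratio of the CPM of 2 subunit genes in each library, for the 6 pairs, with 1 line per mouse. Axes differ in their position and each spans the same range. *Cybb* over *Cyba* is higher in NaCl, and *Cyba* over *Ncf1* lower, in 3 of 3 mice without overlap between the groups.

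The oxidase partners were a list of 5 genes that act with the members, of which 5 were tested. EdgeR without the block called 0 of them, and DESeq2 called 0. At an unadjusted p under 0.05 in edgeR without the block 2 were higher, against 6.63% of all genes. EdgeR with the block called 1 higher, against 4.6% of all genes higher in that fit. That gene was *Rac2*, the Rac GTPase of blood cells, at 306, 277 and 270.3 CPM in control and 365, 489.6 and 314 CPM in NaCl. NaCl replicate 2 stood apart, and all NaCl libraries exceeded all control libraries. Its log2 fold change was 0.46 (SE 0.17, adjusted p = 0.304 in edgeR, 0.0295 with the block). Without NaCl replicate 2 the log2 fold change of *Rac2* was 0.26, and with the block it passed without mouse 3 but not without mouse 1 or mouse 2. *Rac1*, the widely expressed Rac, was at 331 ± 5.70 and 347 ± 4.32 CPM (log2 fold change 0.07, adjusted p = 0.855), and 51.4% of its exonic bases overlap *Daglb* on the opposite strand.

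The remaining partners were *Cybc1*, *Hvcn1* and *Rap1a*. *Cybc1*, which encodes the chaperone that gp91phox and p22phox need to mature, had means of 76.4 ± 0.130 and 77.6 ± 3.43 CPM in control and NaCl, with a log2 fold change of 0.02 (95% interval -0.24 to 0.28). *Hvcn1*, the voltage-gated proton channel that offsets the charge moved by the oxidase, was at 48.0 ± 1.06 and 61.2 ± 11.1 CPM (log2 fold change 0.36, adjusted p = 0.376 in edgeR, 0.0965 with the block), and 44.2% of its exonic bases overlap *Tctn1* on the opposite strand. *Rap1a*, a GTPase found with the flavocytochrome, was at 76.7 ± 1.39 and 69.7 ± 16.3 CPM (log2 fold change -0.14, adjusted p = 0.787), and its NaCl spread came from NaCl replicate 2 at 51.1 CPM.

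**Figure D4:**
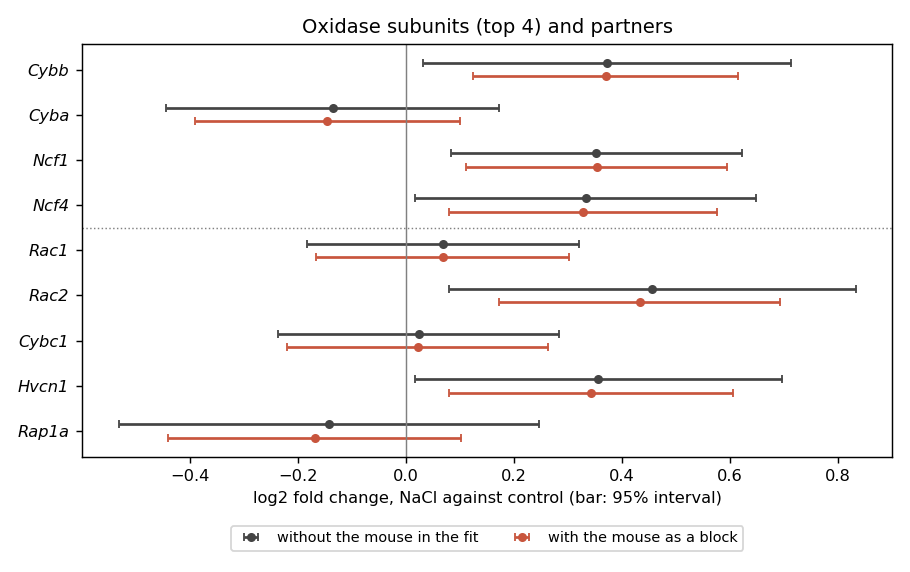
Log2 fold change, NaCl against control (horizontal axis), of the 4 subunit genes (above the dotted line) and 5 partners, from edgeR's test without (grey) and with (red) the mouse as a block. Bars are 95% intervals of the unadjusted estimate, and those of *Cyba*, *Rac1*, *Cybc1* and *Rap1a* span 0.

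A further 6 lists covered genes that act around the oxidase. With the partners they made 81 genes in 7 lists, of which 70 were tested. EdgeR without the block called 0 of the 70, with a lowest adjusted p of 0.135, and DESeq2 without the block called 1, *Aqp9*. At an unadjusted p under 0.05 in edgeR without the block there were 11. Of these 6 were higher, where 6.63% of all genes tested were higher at that level. With the mouse as a block 10 passed, 6 of them higher and 4 lower, which is 14.3% of the 70, against 8.9% of all genes tested (4.6% higher and 4.3% lower). The median log2 fold change of the 70 was 0.10. Rose and fell refer below to edgeR with the block, and none of these calls held in the main edgeR fit without it. With a minimum total of 1 in place of 10, edgeR without the block called 2 pathway genes higher and 2 lower.

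Among 26 genes of oxidase activation, which encode kinases, Rac exchange factors and other upstream proteins, 2 rose and 0 fell with the block, and the list's median log2 fold change was 0.14. *Prkcb*, a protein kinase C that phosphorylates p47phox, had means of 103 ± 11.4 and 142 ± 10.2 CPM in control and NaCl, with all NaCl libraries above all controls (log2 fold change 0.47, adjusted p = 0.179 in edgeR, 0.00918 with the block). *Pla2g4a*, the cytosolic phospholipase that releases arachidonic acid, was at 51.6 ± 17.3 and 75.5 ± 28.3 CPM (adjusted p = 0.518 in edgeR, 0.00634 with the block). The widely used kinase *Prkcd* was at 389.9 CPM in control and had a log2 fold change of 0.29 (adjusted p = 0.127 with the block). Of 13 transcription factors known for *Cybb* and its partners, 1 rose and 0 fell with the block. This was *Cebpb*, at 49.8 ± 11.7 and 81.1 ± 23.2 CPM (log2 fold change 0.70, adjusted p = 0.249 in edgeR, 0.000732 with the block), and 20.7% of its exonic bases overlap *Tmem189*. *Spi1*, which encodes PU.1, had a log2 fold change of 0.25 and *Irf8* of 0.14, and neither passed in either edgeR fit.

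Genes that handle superoxide and peroxide had a median log2 fold change of -0.11 over the 14 tested of 17, with 3 lower and 0 higher with the block. *Prdx1*, an abundant peroxiredoxin, had means of 3593 ± 554 and 2419 ± 432 CPM in control and NaCl, with no overlap between the groups (log2 fold change -0.57, adjusted p = 0.209 in edgeR, 0.00343 with the block). *Prdx6* was at 129 ± 26.6 and 93.8 ± 6.22 CPM (adjusted p = 0.0213 with the block). *Aqp9*, an aquaglyceroporin, was at 4.14 ± 1.72 and 1.33 ± 0.739 CPM (log2 fold change -1.83, adjusted p = 0.135 in edgeR, 0.00147 with the block and 0.0281 in DESeq2 without it). The superoxide dismutases *Sod1* and *Sod2* had log2 fold changes of 0.45 and 0.21 and did not pass. *Sod3*, *Aqp3* and *Aqp8* had totals under 10 and were not tested. Of 7 genes that supply NADPH, *Idh1*, the cytosolic isocitrate dehydrogenase, rose with the block, from 211 ± 48.5 to 314 ± 80.4 CPM (log2 fold change 0.58, adjusted p = 0.296 in edgeR, 0.00164 with the block). *G6pdx*, the first enzyme of the pentose phosphate pathway, had a log2 fold change of 0.15 and did not pass.

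Other NADPH oxidases were at or near the limit of counting. Of 9 genes of this family and their partners 2 were tested, and *Nox3*, *Nox4*, *Noxa1*, *Duox1*, *Duox2*, *Duoxa1* and *Duoxa2* had totals of 0 to 6 reads over the 6 libraries. *Nox1* had 5, 17 and 48 reads in control and 21, 33 and 16 in NaCl, at 1.51 ± 0.927 and 3.06 ± 0.745 CPM, and rose with the block (adjusted p = 0.0465) but not without it (0.453). Of the exonic bases of *Nox1*, 12.1% overlap *Cstf2* on the opposite strand. *Noxo1* was at 0.575 ± 0.208 and 0.559 ± 0.327 CPM. Among enzymes that make other oxidants, *Mpo*, the myeloperoxidase of neutrophil granules, fell with the block (adjusted p = 0.0245), from 11.1 ± 1.81 to 7.03 ± 3.59 CPM, *Epx* and *Xdh* did not pass, and *Nos2* had 8 reads in all and was not tested. *Mpo* is also one of the neutrophil markers.

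**Figure D5:**
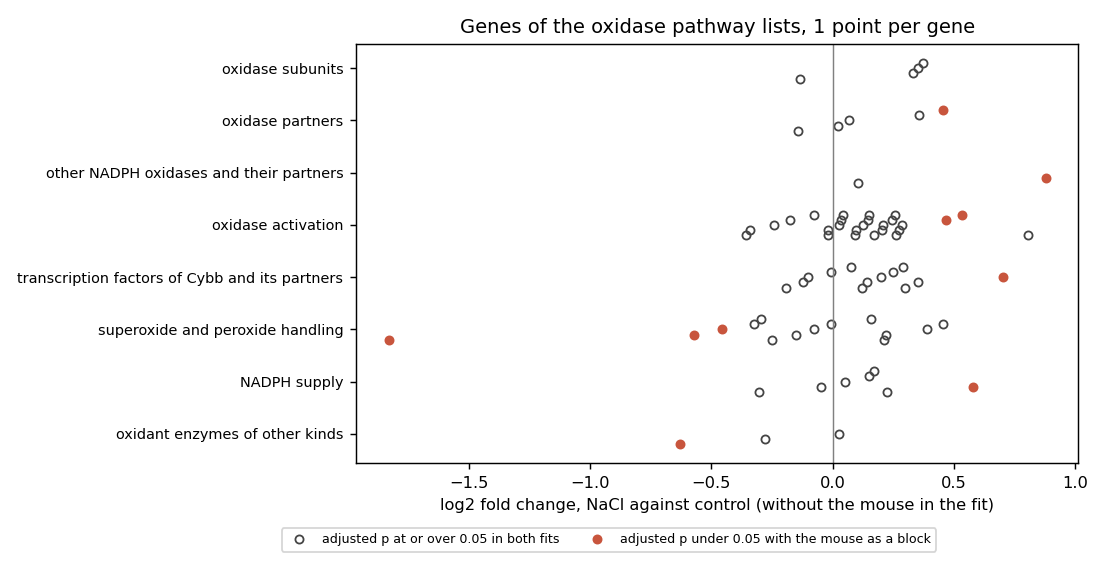
Log2 fold change, NaCl against control, without the mouse in the fit (horizontal axis), of the genes tested in each list, with 1 point per gene and filled points past the threshold with the mouse as a block. Filled points lie on both sides of 0, and none is an oxidase subunit of the upper row.

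The genes whose pattern over the 6 libraries lay closest to each member were found by the root mean square difference of log2 CPM, each gene being centred on its own mean, among genes at 10 CPM or more on average. For *Cybb* these were *Irgm1*, *Herc1* and *Sirpb1c*, at distances of 0.04, 0.06 and 0.07. For *Ncf1* they were *Mlec*, *Cd2bp2* and *Gpc1* (0.05, 0.05 and 0.06), for *Ncf4* they were *Gtf3c5*, *Herc2* and *Cxxc1* (0.02, 0.03 and 0.03), and for *Cyba* they were *Naxe*, *Dnajb6* and *Rhoc* (0.03, 0.03 and 0.04). The members lay farther from each other. The closest pair was *Ncf1* and *Ncf4*, at 0.12, followed by *Cybb* and *Ncf1* at 0.20. *Cyba* was 0.27 to 0.31 from the other 3, and *Cybb* and *Ncf4*, at 0.285, lay as far apart. Many genes enter this search, so a near neighbour says only that its values ran alike in these 6 libraries.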

How the data were processed

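RNA of adherent BMDMs from 3 mice, each as control and with NaCl, was sequenced in 6 libraries, polyadenylated and without strand information. The authors trimmed reads with fastp 0.20.0, aligned them with STAR 2.7.10b and deposited a raw count per gene. They also deposited these counts divided by DESeq2 size factors, a normalized signal, which served here for gene symbols and as a check. The notes name mm10, whereas the methods name GENCODE vM32, an annotation of another build, so genes are placed by chromosome only. Exon lengths came from GENCODE M21 and were known for 97.4% of genes tested.

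Genes with a total of at least 10 were tested in edgeR 4.0.16 (TMM, glmQLFit and glmQLFTest, treatment only), adjusted by Benjamini-Hochberg over 15903 genes. Standard errors were the log2 fold change over the root of F. Log2 CPM had a prior count of 2. DESeq2 1.42.0 and limma 3.58.1 served as alternatives, with R 4.3.3 and Python 3.11.15. Scripts were tested on simulated data. Controls and treated libraries of 1 number come from the same mouse, so the mouse pairs the samples. The deviations of same-mouse libraries correlated across genes at 0.43, 0.15 and 0.22 for mice 1, 2 and 3. Between libraries of different mice the values ran from -0.35 to 0.124, so that of mouse 2 was only just above them. P-values measure the spread among libraries of these 3 mice.

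Members, lists and tests were chosen with earlier results of these data known. Genes named are the members, the partners, the defining markers of each cell type list, the 3 nearest patterns per member and, from the other pathway lists, genes past the threshold in edgeR, up to 5 per list with the block, and genes with too few reads to test. *Spi1*, *Irf8*, *Prkcd*, *Sod1*, *Sod2*, *G6pdx*, *Noxo1*, *Epx*, *Xdh*, *Mertk*, *Ifitm6*, *Csf3r*, *Ngp*, *S100a9*, *Siglecf* and *Prg2* were added after their values were seen. Some items of the lists are not reported here.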

Additional observations from a re-analysis of the deposited data

How the results depend on the processing

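Each of the 4 subunit genes kept the direction of its log2 fold change in 22 of 22 alternatives. Their range was 0.27 to 0.48 for *Cybb*, 0.29 to 0.45 for *Ncf1*, 0.20 to 0.42 for *Ncf4* and -0.23 to -0.02 for *Cyba*. None passed in any of the 6 fits that left out 1 library, where log2 fold changes were 0.27 to 0.48 for *Cybb*, 0.31 to 0.41 for *Ncf1*, 0.22 to 0.42 for *Ncf4* and -0.22 to -0.02 for *Cyba*. *Cybb* passed in DESeq2 with the replicate block (0.38), after thinning every library to the smallest with the block (0.41), and, chosen after the data were seen, in limma-voom (0.37) and the likelihood ratio test (0.37) with the block. *Ncf1* passed after thinning with the block (0.40). With the block and mouse 2 left out, *Cybb* (0.46, adjusted p = 0.000136 in edgeR) and *Ncf1* (0.34, adjusted p = 0.00785) passed, whereas without mouse 1 or 3 neither did. A fit with 1 mouse left out rests on 2 mice, so its p-values depend mostly on the spread shared across genes. Over all fits the adjusted p ranged from 0.000136 to 0.752 for *Cybb*, 0.00785 to 0.683 for *Ncf1*, 0.0776 to 0.765 for *Ncf4* and 0.437 to 0.952 for *Cyba*. The lowest value of each gene came from a fit with 1 mouse left out. The number of subunit genes higher was 0, against 1 in DESeq2, limma-voom and the likelihood ratio test with the block, 2 after thinning with the block and 0 to 2 when libraries or mice were left out. For these changes the cause was not tested.

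Among all genes, 76 were higher and 28 lower, against 245 and 155 in DESeq2, 732 and 684 with the block, 452 and 354 in DESeq2 with the block, 362 and 300 with a minimum total of 1, 267 and 196 in the likelihood ratio test, 47 and 15 after thinning and 505 and 407 after thinning with the block. Chosen later, limma-voom with the block gave 652 and 541 and the likelihood ratio test with the block 845 and 840. Leaving out 1 library gave 8 to 123 higher and 0 to 46 lower, from 8 and 1 without control replicate 2 to 123 and 46 without NaCl replicate 1, and leaving out 1 mouse with the block 469, 758 and 715 higher and 417, 661 and 585 lower (without mouse 1, 2 and 3). Of the genes called, 73.1% were higher without the block and 51.7% with it. The number of pathway genes past the threshold was 0 in each direction, against 6 higher and 4 lower with the block, 5 and 3 in DESeq2 with the block, 0 and 1 in DESeq2, 2 and 2 with a minimum total of 1, 0 and 1 in the likelihood ratio test, 4 and 3 after thinning with the block, 5 and 3 in limma-voom with the block, 6 and 4 in the likelihood ratio test with the block, and 0 to 8 higher and 0 to 4 lower when libraries or mice were left out.

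The difference between *Cybb* and *Cyba* stayed between 0.40 and 0.65, and that between *Cyba* and *Ncf1* between -0.56 and -0.42, in 8 alternatives each. Leaving out 1 library moved the small differences across 0, with ranges of -0.10 to 0.16 for *Cybb* over *Ncf1*, -0.14 to 0.26 for *Cybb* over *Ncf4* and -0.085 to 0.12 for *Ncf1* over *Ncf4*. Of the partners, *Rac2* passed in 5 fits with the block and *Hvcn1* in 1, with the block and without mouse 3. *Cybc1*, which passed in none, crossed 0 after thinning (-0.047) and after thinning with the block (-0.045). Leaving out 1 library gave -0.00012 (without NaCl replicate 1) to 0.057 for *Cybc1* and -0.28 to 0.050 (without NaCl replicate 2) for *Rap1a*, and without mouse 2 in the fit with the block *Rap1a*, which also passed in none, was at 0.056. Longest transcripts in place of all exons gave 207 and 268 CPM per kilobase for *Cybb*, 655 and 596 for *Cyba*, 116 and 149 for *Ncf1* and 99.7 and 126 for *Ncf4* in control and NaCl. *Nox1* and *Aqp9* had as few as 5 and 8 reads in a library, so their values carry a large counting error.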
